A study of Mus musculus with 11 samples.

Results

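Cytochrome P450 genes were taken as genes whose symbol on the array annotation begins with Cyp, a family number, a subfamily letter and a gene number, and that had a probe above background (detection p under 0.05) on at least 2 of 11 arrays. Of 86 such genes with a probe, 45 met this rule, among 12865 genes tested in all. Whole-organ RNA was taken from BALB/c adults, and every mouse carries the label female. The groups were untreated healthy kidney (n = 3), kidney made fibrotic by unilateral ureter obstruction (n = 2), untreated healthy lung (n = 3) and lung made fibrotic by bleomycin given through the trachea (n = 3). The labels name no allele or transgene and give no time after injury. Levels are log2 intensities after background correction and quantile normalisation, in which about 4.4 is background. A change is called where the adjusted p of a limma fit over all genes was under 0.05. Levels of different probes are not comparable with each other, so each gene is compared only with itself. Where levels of several markers are summed, the sum is compared only between arrays. Such a sum mostly follows its brightest probes.

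P450 enzymes are haem proteins that put 1 oxygen atom from molecular oxygen into a substrate. Families 1 to 3 oxidise drugs, toxins and steroids, and several of their members make epoxides from arachidonic acid. Family 4 enzymes hydroxylate the far end of fatty acids, and the higher families work on sterols, bile acids, vitamin D and retinoic acid. In the kidney many P450s are enriched in proximal tubule cells, and in the mouse lung Cyp2f2 and Cyp2b10 are known from club cells, the secretory cells of the airway.

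Membership was close for some genes. Cyp2c37, Cyp2c50, Cyp2c70 and Cyp3a11 were above background on exactly 2 arrays, in each case healthy kidney 1 and healthy lung 3, and Cyp2d13 on healthy lung 3 and fibrotic lung 2. Just outside, 13 genes were above background on 1 array, of which 10 only on healthy lung 3, and 28 genes were above background on 0 arrays. Genes outside include Cyp1a1, a classical target of the aryl hydrocarbon receptor, Cyp2j5, an epoxygenase, and Cyp2r1, a vitamin D 25-hydroxylase. Cyp4a10, a fatty acid hydroxylase, was not analysed here. Of the 45 genes, 16 were above background on all 11 arrays, 30 on every kidney array and 20 on every lung array. Only lung arrays detected 3 of them, and only kidney arrays another 3.

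Several arrays stood apart from their labels before any P450 was compared. Healthy lung 3 held liver transcripts: the summed linear level of 11 liver markers tested was 134159 there, against 981.5 and 1002 in the other healthy lungs, 3336 to 5293 in healthy kidneys, 1830 and 12349 in obstructed kidneys and 900 to 1470 in bleomycin lungs. The apolipoprotein Apoa2 stood at 14.68 on that array and at 4.45 and 4.46 in the other healthy lungs. Apoa2 read 10.16, 9.06 and 8.11 in healthy and 6.26 and 4.85 in obstructed kidneys. The sum in obstructed kidney 2 came with Fga at 13.41 there, while Mup3 read 4.39. Of the 11 liver markers, 0 were called between healthy and obstructed kidneys. The fit shares 1 spread over all groups, and healthy lung 3 widened it (SD of Mup3 over healthy lungs 5.75). That count therefore cannot tell whether liver transcripts differed between the kidney groups. Mup3 stood at 10.05, 9.26 and 7.94 in healthy and 4.41 and 4.39 in obstructed kidneys. Itih3 went the other way, from 7.40, 6.79 and 7.16 to 7.77 and 7.83. Xist, an RNA made from the silenced X of female cells, stayed at background on all 6 healthy arrays, read 10.83 and 10.56 in the obstructed kidneys, and read 5.61, 4.37 and 9.03 in the bleomycin lungs. Eif2s3y, a Y-linked gene, stood at 9.06 to 9.75 in healthy organs and in bleomycin lungs 1 and 2 at 9.78 and 9.76, but was not above background in obstructed kidneys (4.42 and 4.40) or bleomycin lung 3 (4.44). Y-linked Kdm5d followed Eif2s3y, at 4.45 and 4.82 in obstructed kidneys and 4.53 in bleomycin lung 3. Uty, also Y-linked, was above background on 1 of 2 obstructed kidneys and on all 3 bleomycin lungs. Xist, Eif2s3y and Kdm5d go against the female label in the healthy organs. In bleomycin lungs 1 and 2 Eif2s3y and Kdm5d go against it, though Xist was above background on lung 1. In the kidney Xist, Eif2s3y and Kdm5d separate the healthy from the obstructed group. Some lung transcripts were found in the obstructed kidneys. Scgb1a1, the main club cell secretory protein, stayed at background in the healthy kidneys but read 12.48 and 11.35 after obstruction. The rise was at least 96.9-fold (limma adjusted p = 2.74e-07). Of 8 club cell markers tested, 3 were called higher and 1 lower after obstruction, and 4 were not called. Scgb3a1, Bpifa1 and Chad were not above background on either obstructed kidney. The arrays had raw medians of 95.2 to 125.1 intensity units and detected 17036 to 21504 probes.

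**Figure D1:**
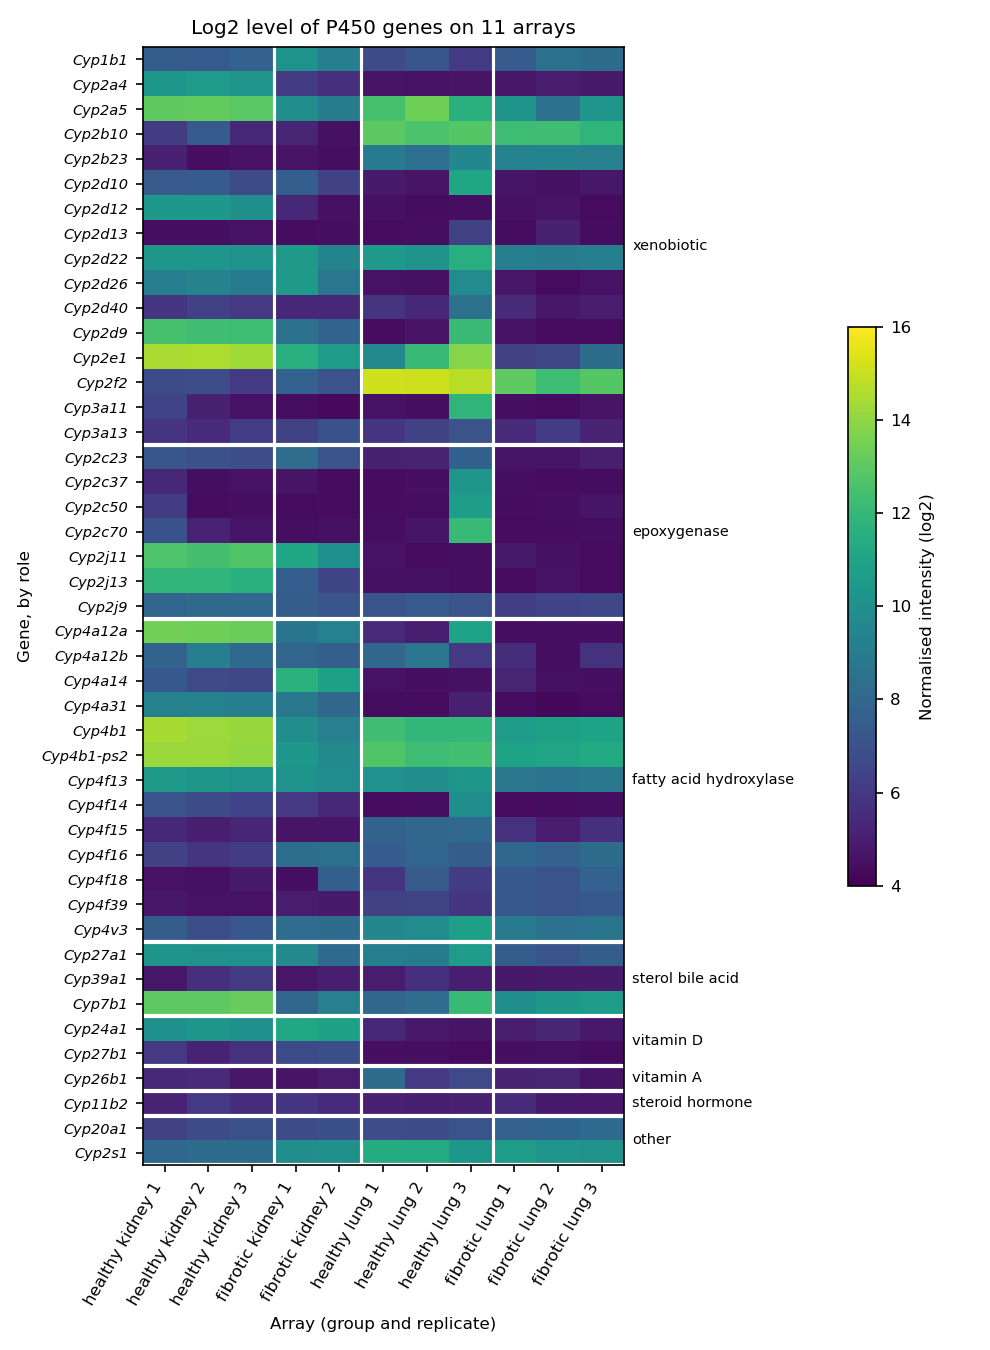
Log2 level (colour, 4 to 16) of the 45 P450 genes in rows, grouped by role, on the 11 arrays in columns. Cyp2j13, Cyp2d12 and Cyp2a4 are bright only in healthy kidney, Cyp2f2 and Cyp2b10 only in lung, and Cyp3a11, Cyp2c70, Cyp2c50 and Cyp2c37 mainly on healthy lung 3.

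Healthy kidney and lung were compared first. Of the 45 genes, 15 were called higher in healthy kidney, where the share over all genes was 28.2%, and 10 were called higher in healthy lung, where that share was 33.5% (25 of 45 in either direction, or 55.6%, against 61.6% of all genes). The median difference, kidney minus lung, was 0.50 over the P450 genes and -0.09 over all genes, with P450 medians of 0.17, 0.24 and 0.30 without healthy lung 1, healthy lung 2 and healthy kidney 2. All 3 Cyp2j genes and 3 of 4 Cyp4a genes were higher in kidney, and both Cyp2b genes and 4 of 6 Cyp4f genes were higher in lung. Of the latter, Cyp4f18 (adjusted p = 0.0365) lost its call in 12 of 22 alternatives, among them without any 1 healthy kidney, healthy lung 2 (adjusted p = 0.133) or bleomycin lung 1 or 2. The second Cyp4f18 probe gave a difference of 0.49 (limma adjusted p = 0.122), opposite in sign to the probe used (-1.79). Liver transcripts on healthy lung 3 touch this comparison. Without that array 20 genes were higher in kidney and 10 in lung, where 59.2% of all genes were called in either direction. The 5 gained were Cyp27a1, Cyp2c23, Cyp2d10, Cyp2d26 and Cyp4f14.

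Epoxygenases of the Cyp2j subfamily marked the kidney side. Cyp2j11 stood at 12.70, 12.47 and 12.73 in healthy kidneys and was not above background in any healthy lung (4.60, 4.36 and 4.47). It was at least 201-fold higher in kidney (limma adjusted p = 4.74e-09). Cyp2j13, whose transcript is known to be more abundant in male than in female mouse kidney, stood at 11.91, 11.92 and 11.64 in healthy kidneys and was likewise not above background in lung, at least 115-fold lower there (adjusted p = 5.77e-09). Cyp2d12 was at least 38.3-fold higher in kidney, at 10.38, 10.38 and 9.96 (adjusted p = 1.26e-08). Cyp24a1, which inactivates vitamin D by 24-hydroxylation, was above background on 1 of 3 healthy lungs and 36.5-fold higher in kidney (10.00, 10.35 and 10.02 against 5.36, 4.84 and 4.61, adjusted p = 2.59e-08). The vitamin D 1-alpha-hydroxylase Cyp27b1 was at least 1.59-fold higher in kidney, where 2 of 3 healthy arrays detected it.

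On the lung side, Cyp2f2, which turns naphthalene into a toxic epoxide in club cells, stood at 15.12, 15.07 and 14.69 in healthy lungs and at 6.79, 6.82 and 6.02 in healthy kidneys, a 342-fold difference (limma adjusted p = 7.91e-09). Cyp2b10, the classical target of the xenobiotic receptor CAR, was 90.7-fold higher in lung (12.98, 12.60 and 12.85 against 6.15, 7.38 and 5.39, adjusted p = 4.19e-07). Its second probe read 5.52 to 6.14 in lung and did not differ past the threshold (-0.49, adjusted p = 0.161), so the Cyp2b10 result rests on 1 probe. The related Cyp2b23 was at least 12.4-fold higher in lung. Cyp2s1, an epithelial P450, Cyp4v3 and Cyp4f15, fatty acid hydroxylases, were 7.37-, 7.17- and 6.54-fold higher in lung. The retinoic acid hydroxylase Cyp26b1 was 3.45-fold higher in lung, with levels of 8.26, 6.00 and 6.63 there. Its difference, kidney minus lung, was -1.79 and, without healthy lung 1, -1.14 (limma adjusted p = 0.00736 and 0.00768).

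The near relatives Cyp2a5 and Cyp2a4 differed in what the healthy lung arrays read. Cyp2a5, which oxidises coumarin and nicotine, was bright in both organs, at 13.05, 13.10 and 12.92 in healthy kidneys and 12.52, 13.33 and 11.63 in healthy lungs. Cyp2a4, a steroid 15-alpha-hydroxylase of the same subfamily, stood at 10.41, 10.58 and 10.28 in healthy kidneys and was not above background in healthy lungs (4.64, 4.59 and 4.63). It was at least 43.7-fold higher in kidney (limma adjusted p = 1.97e-09). Another 3 Cyp2a5 probes gave the gene as higher in healthy kidney, by up to 2.11 log2 units, and the other 2 did not pass the threshold. The coding sequences of these genes are nearly identical, so a Cyp2a5 probe may also take up Cyp2a4 transcripts, and this was not tested. Their promoters are shown because the pair is alike upstream yet only Cyp2a5 was above background in healthy lung. The 250 bases before each start agree at 245 of 251 aligned positions, with 4 base differences, in capitals, and 2 gap positions (RefSeq, GRCm38.p6, Cyp2a4 at chr7:26306942-26307191 and Cyp2a5 at chr7:26835089-26835338, both plus strand).
Cyp2a4: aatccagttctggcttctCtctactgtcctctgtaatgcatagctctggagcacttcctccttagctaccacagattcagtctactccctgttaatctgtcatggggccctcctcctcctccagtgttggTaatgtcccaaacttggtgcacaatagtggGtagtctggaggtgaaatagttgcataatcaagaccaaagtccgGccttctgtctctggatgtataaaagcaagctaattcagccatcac
Cyp2a5: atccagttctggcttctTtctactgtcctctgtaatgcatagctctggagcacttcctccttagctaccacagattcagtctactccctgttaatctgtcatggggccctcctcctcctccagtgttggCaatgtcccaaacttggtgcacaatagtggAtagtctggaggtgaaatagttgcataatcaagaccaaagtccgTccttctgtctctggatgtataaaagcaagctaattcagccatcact
Both hold TATAAA, the core of a TATA box, in the same aligned stretch near the start. That motif, searched on both strands, was in 10 of 36 windows of 32 P450 genes matched (27.8%) and in 12.4% of 32851 windows of all genes. Other related pairs were less alike over the same length: Cyp2c37 and Cyp2c50 at 84.3% and Cyp2d9 and Cyp2d10 at 82.3% of aligned positions.

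The next comparison asked what ureter obstruction did to P450 genes in the kidney. Of the 45 genes, 7 were called higher and 13 lower, where the shares over all genes were 23.2% and 15.6%. Together that is 20 of 45, against 38.8% of all genes. The median change was -0.57 over the P450 genes and 0.10 over all genes. Without healthy kidney 1 the P450 median was -0.32. Called lower were 5 of 16 xenobiotic enzymes, 4 of 13 fatty acid hydroxylases, 3 of 7 epoxygenases and the sterol enzyme Cyp7b1. Among them were Cyp4b1 (25.9-fold) and Cyp2j13 (27.7-fold). Here and below, counts of fatty acid hydroxylases include the pseudogene Cyp4b1-ps2. The fatty acid hydroxylase Cyp4a14 rose 20.9-fold and both vitamin D enzymes rose. Cyp2d22 and Cyp4f13 were not called (changes of -0.35 and -0.33). Without healthy lung 3 in the fit 8 were higher and 17 lower, where 39.7% of all genes were called in either direction. With the 5 kidney arrays alone the counts were 7 and 15. Without fibrotic kidney 2, 7 were higher and 8 lower.

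Marker levels moved with this comparison. Of 13 proximal tubule markers, 8 fell and 0 rose, and their summed linear level was 132058 to 133012 in healthy and 75183 and 40802 in obstructed kidneys. All 9 macrophage markers rose (summed level 1332 to 1646 in healthy and 9584 and 16692 in obstructed kidneys). Whole-organ RNA cannot tell fewer cells of a type from less RNA per cell. Sex-linked transcripts separated the same groups, so sex and obstruction cannot be told apart for any P450 in this comparison. As background, Cyp2d9, Cyp2e1, Cyp2j13, Cyp4a12a, Cyp4b1 and Cyp7b1 are known as male-biased or androgen-regulated in mouse kidney, and Cyp4a14 as more abundant in female kidney.

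Among xenobiotic and steroid enzymes 5 of 16 fell and 1 rose. Cyp2d12 stood at 10.38, 10.38 and 9.96 in healthy and 5.40 and 4.54 in obstructed kidneys, a change of -5.26 ± 0.24 (SE, limma adjusted p = 8.18e-07), and 1 of 2 obstructed kidneys was above background. Cyp2a4 changed by -4.56 ± 0.17, from 10.41, 10.58 and 10.28 to 6.12 and 5.62 (adjusted p = 2.74e-07). Cyp2a5 changed by -3.51 ± 0.57, from 13.05, 13.10 and 12.92 to 9.93 and 9.10 (adjusted p = 0.00096), and each of its 5 probes was called lower, by -2.78 to -5.49. In all 3 genes every obstructed kidney lay below every healthy one, which is a description, since lack of overlap was among the criteria for naming genes. Cyp2e1, which oxidises ethanol and small solvents, stood at 14.46, 14.52 and 14.30 in healthy and 11.57 and 10.59 in obstructed kidneys, a 10.2-fold fall (adjusted p = 0.0208). That call was lost without healthy kidney 1 (adjusted p = 0.0502), healthy kidney 2 (0.0515) or fibrotic kidney 2 (0.13), and stood at 0.00196 with the kidney arrays alone. Cyp2d9, a testosterone 16-alpha-hydroxylase, read 12.51, 12.34 and 12.27 in healthy and 8.47 and 7.82 in obstructed kidneys, without overlap. Its change of -4.23 ± 1.80 was not called when all arrays were fitted together (adjusted p = 0.0882), where its healthy lungs read 4.39, 4.65 and 12.20, and stood at 0.000843 with the kidney arrays alone. Cyp2b10 was dim in kidney and called lower by 1.42 log2 units (log2 change -1.42, adjusted p = 0.0339), a call lost with the kidney arrays alone (0.116) and without healthy kidney 1 or 2 or fibrotic kidney 2.

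Cyp1b1, which oxidises oestrogens and polycyclic hydrocarbons and is known from mesenchymal cells, was the 1 xenobiotic gene that rose. Its levels were 7.54, 7.41 and 7.75 in healthy and 10.17 and 9.11 in obstructed kidneys, a change of 2.07 ± 0.41 (SE, limma adjusted p = 0.00277). Beside it, 6 of 7 fibroblast markers rose in the obstructed kidneys and 0 fell (summed level 1796 to 2955 in healthy, 7659 and 9588 in obstructed), and their bearing on Cyp1b1 was not tested. Cyp1b1 is also a target of the aryl hydrocarbon receptor, whose core motif is GCGTG. The upstream window is shown with that motif, here on the other strand, in capitals (RefSeq, GRCm38.p6, chr17:79715062-79715311, minus strand).
Cyp1b1: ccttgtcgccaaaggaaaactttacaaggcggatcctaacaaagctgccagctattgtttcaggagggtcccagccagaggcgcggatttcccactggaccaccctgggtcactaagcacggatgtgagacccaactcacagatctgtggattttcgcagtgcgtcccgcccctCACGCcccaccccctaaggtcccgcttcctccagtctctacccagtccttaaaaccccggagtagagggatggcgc
The motif was in 10 of 36 P450 windows (27.8%) and in 28.2% of all windows.

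All 3 Cyp2j genes fell. Cyp2j13 stood at 11.91, 11.92 and 11.64 in healthy and 7.57 and 6.49 in obstructed kidneys, a change of -4.79 ± 0.26 (SE, limma adjusted p = 2.68e-06). Cyp2j11 stood at 12.70, 12.47 and 12.73 and at 11.11 and 10.02, a change of -2.07 ± 0.28 (adjusted p = 0.000333), which its second probe also gave (-1.96). Cyp2j9 changed by -0.71 ± 0.18 (adjusted p = 0.0101, and 0.0827 without fibrotic kidney 2). Of the 4 Cyp2c genes, 0 were called, and the renal epoxygenase Cyp2c23 read 7.22, 6.96 and 6.82 in healthy and 8.31 and 7.08 in obstructed kidneys.

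The fatty acid hydroxylases moved in both directions, 3 higher and 4 lower of 13. Cyp4a14, a target of the fatty acid receptor PPAR-alpha, stood at 7.29, 6.67 and 6.57 in healthy and 11.65 and 10.81 in obstructed kidneys, a change of 4.38 ± 0.31 (SE, limma adjusted p = 9.61e-06). In the same arrays Ppara itself stood at 7.84, 7.68 and 8.24 and at 6.00 and 5.00, a change of -2.42 ± 0.30 (adjusted p = 0.000195). Cyp4a12a, which makes the vasoconstrictor 20-HETE, went the other way from its relative Cyp4a14: it stood at 13.45, 13.36 and 13.24 in healthy and 8.66 and 9.25 in obstructed kidneys, a change of -4.39 ± 1.35 (adjusted p = 0.026). In the fit over all arrays that call was lost without any 1 of the 5 kidney arrays (adjusted p = 0.0532 to 0.107), whereas with the kidney arrays alone it stood at 0.00062. Cyp4a31 changed by -0.85 ± 0.25 (adjusted p = 0.0218, and 0.209 without fibrotic kidney 2; also lost without healthy kidney 1 or 2). Cyp4b1, known for activating plant furans in lung, stood at 14.44, 14.22 and 14.15 in healthy and 9.94 and 9.21 in obstructed kidneys, a change of -4.70 ± 0.23 (adjusted p = 1.47e-06). The probe annotated to Cyp4b1-ps2, a pseudogene of it, gave -4.09 ± 0.22, and transcripts of the gene and the pseudogene may be taken up by either probe.

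Of the Cyp4f genes, known in part for inactivating leukotriene B4, 1 of 6 was called in kidney. Cyp4f16 stood at 6.35, 5.81 and 6.12 in healthy and 8.32 and 8.42 in obstructed kidneys, a change of 2.28 ± 0.21 (SE, limma adjusted p = 3.33e-05). A second probe gave 1.79 and another gave 0.21 (adjusted p = 0.588), so the probes of this gene disagree. Cyp4f18, known from neutrophils, was above background in obstructed kidney 2 alone among kidney arrays (7.62, against 4.49 in the other) and was not called. Cyp4v3 was called 2.04-fold higher (adjusted p = 0.0392), from 7.56, 6.83 and 7.26 to 8.28 and 8.22. That call was lost without healthy kidney 2 or 3, either obstructed kidney, or bleomycin lung 2 or 3 (adjusted p = 0.0514 to 0.122). Cyp2s1, a P450 known from epithelia, rose by 1.78 ± 0.30, from 8.03, 8.22 and 8.25 to 9.87 and 10.02 (adjusted p = 0.00113).

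Sterol and vitamin enzymes also differed. Cyp7b1, which 7-alpha-hydroxylates oxysterols, stood at 13.01, 13.04 and 13.22 in healthy and 7.94 and 9.21 in obstructed kidneys, a change of -4.51 ± 0.97 (SE, limma adjusted p = 0.00461). Without obstructed kidney 1 it was -3.88 and without obstructed kidney 2 it was -5.14, with adjusted p of 0.0378 and 0.0152. Both vitamin D enzymes rose: Cyp24a1 went from 10.00, 10.35 and 10.02 to 11.21 and 10.87 (0.91 ± 0.24, adjusted p = 0.0136), and Cyp27b1 from 6.00, 5.21 and 5.73 to 6.71 and 6.90 (1.16 ± 0.21, adjusted p = 0.00165). The Cyp24a1 call was lost without obstructed kidney 1 (0.74, adjusted p = 0.086). The vitamin D receptor Vdr read 11.16, 11.35 and 11.04 in healthy and 11.12 and 10.44 in obstructed kidneys.

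**Figure D2:**
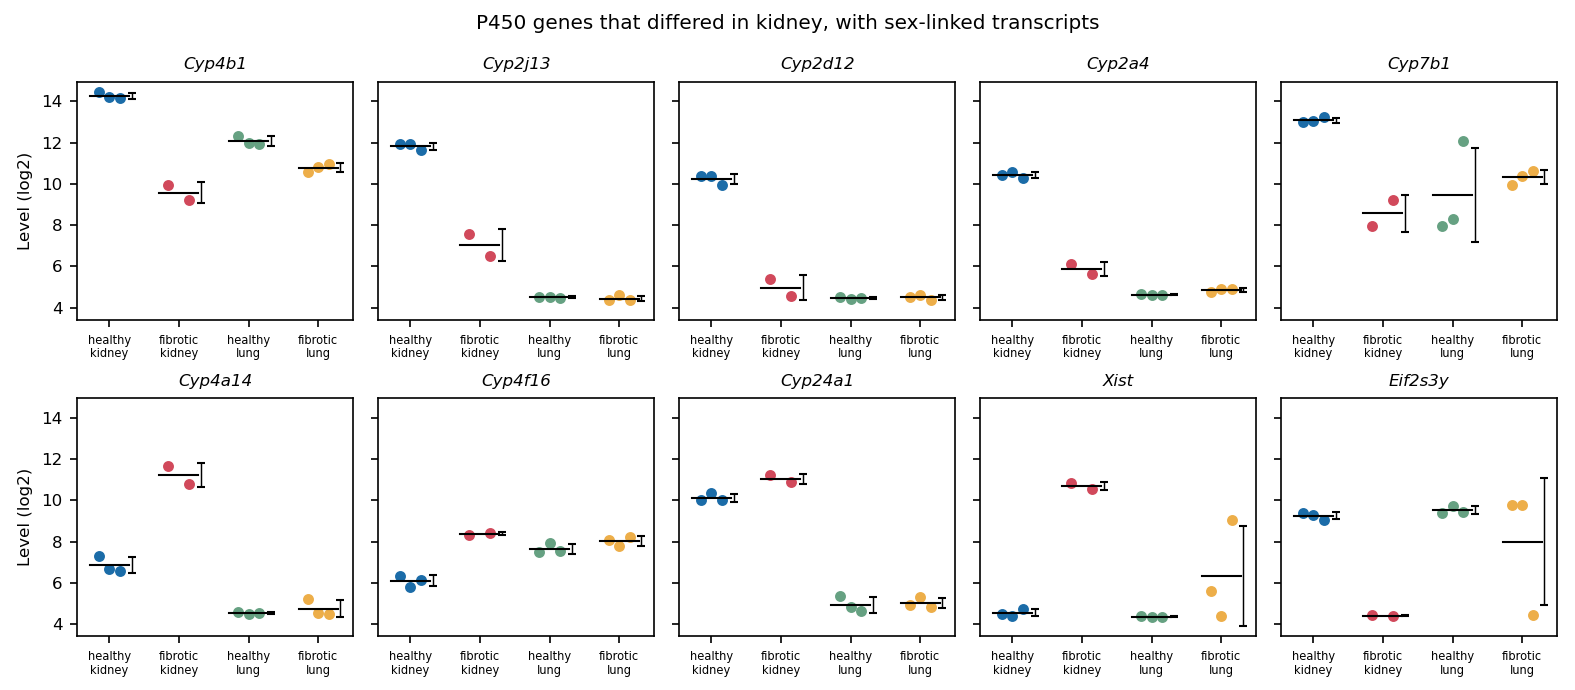
Log2 level on each array (points), group mean (line) and SD (bar) of 8 P450 genes and of Xist and Eif2s3y. Cyp4b1, Cyp2j13, Cyp2d12, Cyp2a4 and Cyp7b1 are lower and Cyp4a14, Cyp4f16 and Cyp24a1 higher in both obstructed kidneys than in any healthy kidney, and Xist and Eif2s3y separate the same 5 arrays.

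For Cyp2f2, the mean in obstructed kidneys minus its own mean in healthy lungs was -7.55, and for Cyp2b10, above background on 1 of 2 obstructed kidneys, it was -7.92. The same difference was -2.67 for Scgb1a1 and -5.58 and -5.51 for the surfactant proteins Sftpc and Sftpd. Cyp2f2 read 7.76 and 7.06 in obstructed against 6.79, 6.82 and 6.02 in healthy kidneys, a change of 0.87 ± 0.32 (SE) that missed the threshold (limma adjusted p = 0.053). The part of lung transcripts in this value was not tested.

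The third comparison asked what bleomycin did in the lung. Of the 45 P450 genes, 3 were called higher and 13 lower, where the share over all genes was 18.9% in each direction. Together that is 16 of 45, against 37.8% of all genes. The median change was -1.20 over the P450 genes and -0.03 over all genes, but without healthy lung 3, the array with liver transcripts, these were -0.09 and -0.03. The 13 that fell were 6 fatty acid hydroxylases, 4 xenobiotic enzymes, 1 epoxygenase, the sterol hydroxylase Cyp27a1 (4.67-fold) and the retinoic acid hydroxylase Cyp26b1 (3.74-fold). Cyp2e1, an oxidiser of solvents, fell 28.1-fold. Cyp1b1, Cyp20a1 and Cyp4f39 rose, by 0.96 to 1.37 log2 units. Without healthy lung 3, 5 were higher and 15 lower, where 35.5% of all genes were called in either direction.

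**Figure D3:**
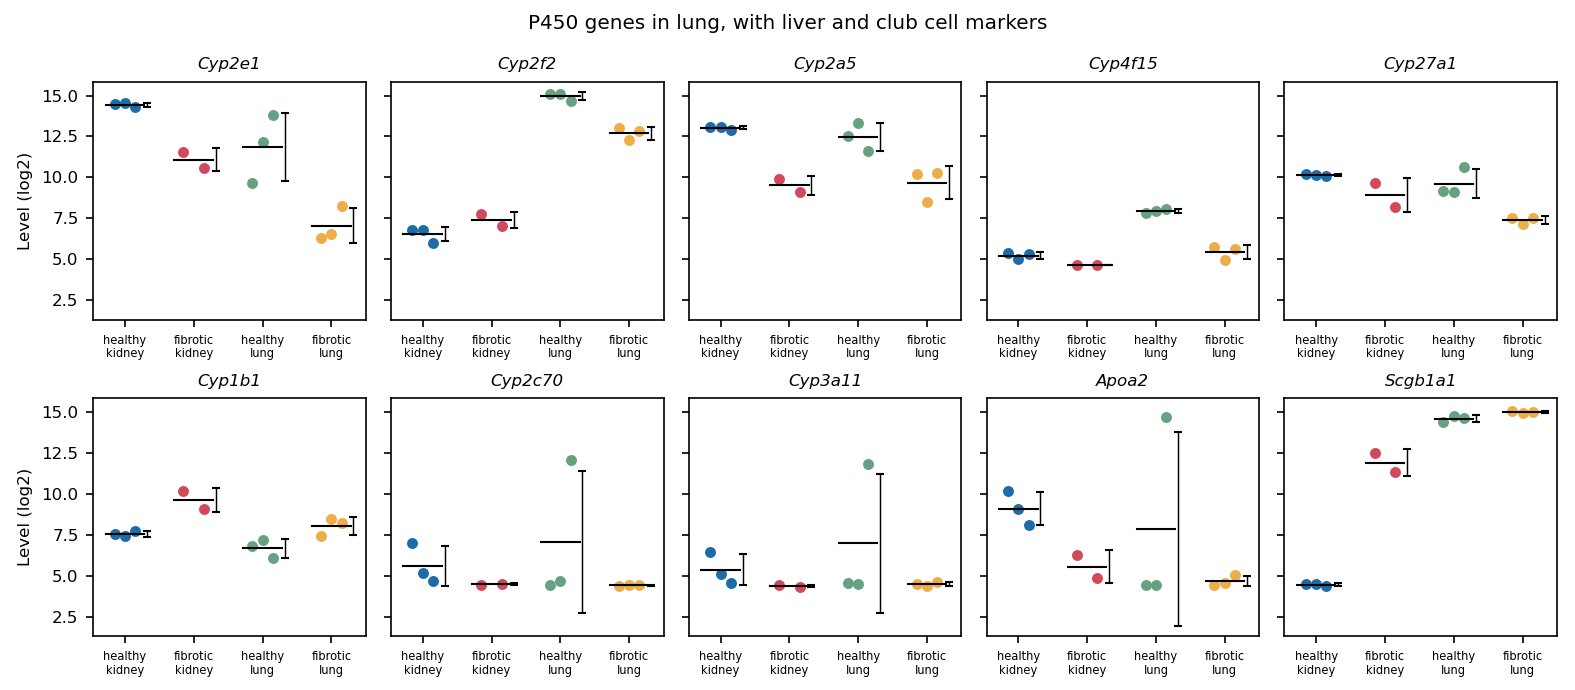
Log2 level on each array (points), group mean (line) and SD (bar) of 8 P450 genes and of the liver marker Apoa2 and the club cell marker Scgb1a1. Cyp2f2, Cyp2a5, Cyp4f15 and Cyp27a1 are lower in all 3 bleomycin lungs than in any healthy lung, and Cyp2c70, Cyp3a11 and Apoa2 are high on healthy lung 3 alone among lung arrays.

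Cyp2f2 stood at 15.12, 15.07 and 14.69 in healthy and 13.01, 12.27 and 12.82 in bleomycin lungs, a change of -2.26 ± 0.28 (SE, limma adjusted p = 0.000277). On the same arrays Scgb1a1 stood at 14.38, 14.77 and 14.63 and at 14.95 to 15.07, a change of 0.41 ± 0.24 (adjusted p = 0.21). The summed level of 8 club cell markers was 50892 to 70372 in healthy and 50254 to 64903 in bleomycin lungs, of which 4 fell (Aldh1a1, Gabrp, Chad and Sec14l3) and Retnla rose. Cyp2b10 read 12.98, 12.60 and 12.85 and then 12.28, 12.32 and 11.85, without overlap, but its change of -0.66 ± 0.41 missed the threshold (adjusted p = 0.243, and 0.0266 with the 6 lung arrays alone). The bearing of the club cell markers on Cyp2f2 and Cyp2b10 was not tested.

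Other xenobiotic enzymes fell too, 4 of 16 with Cyp2f2. Cyp2e1 stood at 9.63, 12.15 and 13.80 in healthy and 6.32, 6.56 and 8.26 in bleomycin lungs, a change of -4.81 ± 0.88 (SE, limma adjusted p = 0.00199). The groups did not overlap, but healthy lungs differed widely: without healthy lung 3 the change was -3.84 (adjusted p = 0.00268), without healthy lung 1 it was -5.93 and without bleomycin lung 3 it was -5.42. Cyp2e1 is also abundant in fat, and the summed level of 4 adipocyte markers was 489, 2464 and 1939 in healthy lungs and 105 to 284 in bleomycin lungs, with 3 of 4 called lower. The bearing of these on Cyp2e1 was not tested. Cyp2a5 stood at 12.52, 13.33 and 11.63 and at 10.23, 8.50 and 10.28, a change of -2.82 ± 0.51 (adjusted p = 0.00193; -2.24 without bleomycin lung 2). All 5 of its probes were called lower, by -1.85 to -2.82. Cyp2d22 changed by -1.59 ± 0.34, from 10.46, 10.15 and 11.51 to 9.16, 9.04 and 9.16 (adjusted p = 0.0044). Without healthy lung 3 that change was -1.19 and kept its call.

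Other cell markers moved between the lung groups: 5 of 7 endothelial markers fell and 0 rose (summed level 30981 to 32260 in healthy and 14802 to 17825 in bleomycin lungs), 2 of 8 alveolar type 2 markers fell and 0 rose, and 7 of 9 macrophage markers rose and 0 fell. Without healthy lung 3, 4 endothelial markers fell and 6 macrophage markers rose. In the obstructed kidneys 3 of 8 alveolar type 2 markers rose. The part of these cells in any P450 result was not tested.

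Cyp1b1 rose in lung as well, from 6.80, 7.21 and 6.06 to 7.45, 8.45 and 8.25, a change of 1.37 ± 0.36 (SE, limma adjusted p = 0.0138). The call was lost without bleomycin lung 2 (1.17, adjusted p = 0.0582) and without healthy lung 3 and bleomycin lung 3 together (0.95, adjusted p = 0.102). Of 7 fibroblast markers 3 rose and 0 fell in lung, and 2 rose without healthy lung 3. The orphan P450 Cyp20a1 stood at 6.85, 6.75 and 7.10 in healthy and 7.75, 7.85 and 8.21 in bleomycin lungs, a change of 1.04 ± 0.20 (adjusted p = 0.00245), and its second probe gave 0.91.

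Of 13 fatty acid hydroxylases, the pseudogene Cyp4b1-ps2 counted with them, 6 fell and 1 rose in lung. Cyp4f15 stood at 7.80, 7.94 and 8.08 in healthy and 5.73, 4.94 and 5.65 in bleomycin lungs, a change of -2.50 ± 0.21 (SE, limma adjusted p = 3.59e-05). Cyp4f13 went from 10.05, 9.95 and 10.34 to 8.78, 8.58 and 8.82 (-1.39 ± 0.16, adjusted p = 0.000179). Cyp4b1 went from 12.34, 11.96 and 11.94 to 10.58, 10.82 and 10.98 (-1.28 ± 0.21, adjusted p = 0.00107), and the Cyp4b1-ps2 probe gave -1.37 ± 0.20. Cyp4v3 went from 9.55, 9.79 and 10.84 to 8.98, 8.54 and 8.63 (-1.34 ± 0.31, adjusted p = 0.00728, and -0.95 without healthy lung 3). In these 5 genes every bleomycin lung lay below every healthy lung. This is a description, since lack of overlap was among the criteria for naming genes. Cyp4a12b changed by -2.31 ± 0.63, from 7.96, 8.73 and 6.01 to 5.56, 4.44 and 5.78 (adjusted p = 0.0157), and was lost without healthy lung 1 (0.0547), healthy lung 2 (-1.73, 0.056) or bleomycin lung 2 (0.067); without healthy lung 3 it was -3.09. Cyp4f39, a skin-barrier fatty acid hydroxylase, rose from 6.38, 6.47 and 5.90 to 7.29, 7.05 and 7.31 (0.96 ± 0.17, adjusted p = 0.00143). The remaining Cyp4f16 probe rose by 1.34 (adjusted p = 0.00158), and the probe used changed by 0.38 (adjusted p = 0.134).

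Among the other roles, Cyp27a1, a mitochondrial sterol hydroxylase, stood at 9.16, 9.09 and 10.62 in healthy and 7.52, 7.13 and 7.55 in bleomycin lungs, a change of -2.22 ± 0.43 (SE, limma adjusted p = 0.00279). Its 3 probes gave -2.08 to -2.53. Without healthy lung 3, the array with liver transcripts, the Cyp27a1 change was -1.72 and kept its call. Cyp26b1 stood at 8.26, 6.00 and 6.63 and at 5.20, 5.28 and 4.70, a change of -1.90 ± 0.47 (adjusted p = 0.00993; -1.25 without healthy lung 1), and the retinoic acid receptors Rarb and Rarg fell by 1.11 and 1.35. Cyp2j9 changed by -0.79 ± 0.16 (adjusted p = 0.00339), a call lost with a common median in place of quantile normalisation (-0.48, adjusted p = 0.0505) and with the authors' processed intensities (-0.22, adjusted p = 0.302). Cyp7b1 read 7.97, 8.30 and 12.07 in healthy lungs, the last on the array with liver transcripts, and 9.96, 10.39 and 10.64 in bleomycin lungs. Its change of 0.88 ± 0.87 was not called (adjusted p = 0.46), and without healthy lung 3 it was 2.20 ± 0.33 (adjusted p = 0.00095). The vitamin D enzymes were dim in lung: Cyp27b1 was above background on 0 of 6 lung arrays and Cyp24a1 on 3 of 6, at 4.61 to 5.36.

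Several P450s known from liver were read on healthy lung 3. On that array 13 of the 45 genes (28.9%) lay over 2 log2 units above the mean of the other healthy lungs, as did 1.70% of all genes tested. Over 1 unit above lay 17 (37.8%, against 2.74% of all genes) and over 1 unit below 3 (6.67%, against 2.86%). These counts are a description, since Cyp2c37, Cyp2c50, Cyp2c70, Cyp3a11 and Cyp2d13 passed the filter on dim probes only with this array. Cyp2c70, which makes muricholic bile acids in mouse liver, stood at 4.46, 4.69 and 12.09 in healthy lungs and at 7.01, 5.17 and 4.70 in healthy kidneys. Cyp3a11, the main mouse liver drug oxidiser of its family, stood at 4.57, 4.51 and 11.85 in healthy lungs and at 6.43, 5.09 and 4.58 in healthy kidneys. Both genes were above background on the same 2 arrays, healthy kidney 1 and healthy lung 3. Their windows are shown because they are the members with CAAAGTCCA, a site of the liver factor HNF4A, on either strand (capitals; RefSeq, GRCm38.p6, Cyp3a11 at chr5:145879855-145880104 and Cyp2c70 at chr19:40187287-40187536, both minus strand).
Cyp3a11: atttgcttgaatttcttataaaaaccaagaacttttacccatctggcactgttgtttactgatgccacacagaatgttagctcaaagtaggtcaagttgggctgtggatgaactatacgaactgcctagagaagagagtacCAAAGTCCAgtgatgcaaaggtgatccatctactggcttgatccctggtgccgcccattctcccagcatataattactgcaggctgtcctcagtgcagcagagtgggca
Cyp2c70: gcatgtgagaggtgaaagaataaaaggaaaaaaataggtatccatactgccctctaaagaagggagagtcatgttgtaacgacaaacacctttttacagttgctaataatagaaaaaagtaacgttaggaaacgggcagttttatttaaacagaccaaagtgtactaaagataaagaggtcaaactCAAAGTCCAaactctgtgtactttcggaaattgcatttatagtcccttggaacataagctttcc
The motif was in 2 of 36 P450 windows (5.56%) and in 0.384% of all windows. This share is likewise a description, since both genes passed the filter on dim probes only with healthy lung 3. Other genes high on healthy lung 3 include Cyp2d9 (12.20), Cyp2d10 (11.12), Cyp4a12a (10.94), Cyp2c50 (10.72) and Cyp2c37 (10.27). The changes of Cyp2d9, Cyp2c70 and Cyp4a12a between lungs, -2.65, -2.67 and -2.63, were not called. Without healthy lung 3 the change of Cyp2d9 was -0.09 and that of Cyp4a12a was -0.72 (limma adjusted p = 0.774 and 0.0207).

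The last comparison tested whether a gene changed differently in the organs, as the kidney change minus the lung change. Of the 45 genes, 9 were called higher and 9 lower, where the shares over all genes were 23.9% and 16.2%. Together that is 18 of 45, against 40% of all genes. The median was 0.79 over the P450 genes and 0.13 over all genes, but without healthy lung 3 it was -0.15 over the P450 genes and 0.13 over all genes. Cyp2d12, Cyp2j13 and Cyp2a4, none above background in healthy lung, differed by -5.31 ± 0.32, -4.73 ± 0.35 and -4.78 ± 0.23 (SE, limma adjusted p = 2.62e-06 to 2.24e-05). Cyp7b1 differed by -5.40 ± 1.31 (adjusted p = 0.00825), with -6.71 without healthy lung 3, -4.66 without healthy lung 1, and -4.76 and -6.03 without obstructed kidney 1 and 2. Cyp4a14 differed by 4.18 ± 0.41 and Cyp2f2 by 3.12 ± 0.43. Cyp2s1 and Cyp4v3 rose in kidney, while in lung Cyp4v3 fell and Cyp2s1 changed by -0.71 (adjusted p = 0.0585); the differences were 2.49 ± 0.40 and 2.37 ± 0.47. For Cyp1b1, called higher in both organs, the difference was 0.71 ± 0.54 (adjusted p = 0.331). For Cyp2e1 and Cyp2a5, called lower in both, it was 1.46 ± 1.31 and -0.68 ± 0.77 (adjusted p = 0.407 and 0.512), but 3 of 5 Cyp2a5 probes gave a called difference of -2.21 to -3.50.

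**Figure D4:**
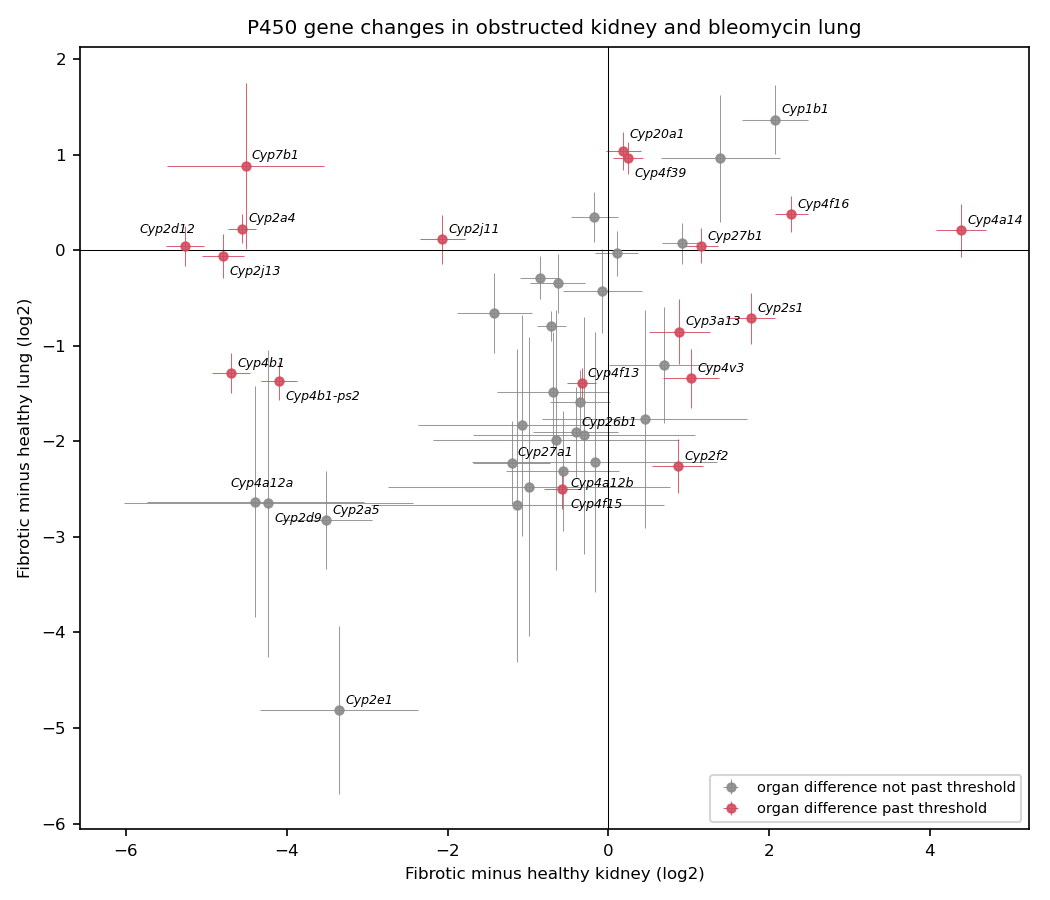
Log2 change of each of the 45 P450 genes in kidney (horizontal) and lung (vertical), with SE bars. Red points are the 18 genes whose change differed between organs; Cyp4a14 lies far right at 4.38 and 0.21, Cyp2e1 lowest at -3.35 and -4.81, and Cyp1b1 upper right at 2.07 and 1.37.

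Partners of the P450s were followed in a list of electron donors, haem enzymes, epoxide hydrolases and P450s outside the naming rule. Of 13 tested, 2 rose and 3 fell in kidney and 3 rose and 5 fell in lung. Cyb5a, cytochrome b5, which passes electrons to P450s, stood at 14.13, 14.09 and 14.02 in healthy and 12.75 and 12.22 in obstructed kidneys (-1.59 ± 0.18, SE, limma adjusted p = 0.000114) and fell by 0.80 in lung. Ephx2, which hydrolyses fatty acid epoxides, fell by 2.39 in kidney. In lung it read 5.77, 7.35 and 9.42 in healthy and 5.22, 5.07 and 5.68 in bleomycin lungs, a called change of -2.19 (adjusted p = 0.0355) that was -1.24 and lost its call without healthy lung 3 (adjusted p = 0.0612). Cyp51, the lanosterol demethylase of cholesterol synthesis, went in opposite directions: 11.11, 10.79 and 11.30 to 9.28 and 8.25 in kidney (-2.30 ± 0.34), and 6.74, 6.64 and 6.97 to 9.39, 10.13 and 9.10 in lung (2.76 ± 0.31). Hmox1, which breaks down haem, rose by 3.48 ± 0.42 in lung. Of 19 receptors and regulators of P450 genes tested, 1 rose (Ppard, 0.90) and 2 fell (Ppara and Rxra) in kidney, and 0 rose and 4 fell in lung.

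The remaining P450 genes were called in neither organ. Cyp11b2, aldosterone synthase, lay between 4.81 and 6.05 on the 11 arrays, and the adrenal markers Star, Hsd3b1, Mc2r and Nr5a1 did not pass the filter on dim probes. Of the 2 adrenal markers tested, 0 were called in kidney and Scarb1, a lipoprotein receptor, was called higher in lung (0.75). Cyp39a1, an oxysterol hydroxylase, lay between 4.71 and 6.09. Cyp3a13 read 5.82, 5.45 and 6.17 in healthy and 6.38 and 7.01 in obstructed kidneys and changed by 0.88 (limma adjusted p = 0.0922), and its second probe was called there (1.05, adjusted p = 0.00618) and in lung (-0.76, adjusted p = 0.0182). Cyp2d26 stood at 9.11, 9.36 and 8.99 in healthy and 10.49 and 8.73 in obstructed kidneys (0.45). Its other probes went the other way (-1.04 and -0.88) and were not called there either. Cyp2d10, Cyp2d13, Cyp2d40, Cyp2b23, Cyp4f14 and Cyp4f18 were likewise not called in either organ in the fit over all arrays. The second Cyp4f18 probe, however, was called higher in lung (0.77, limma adjusted p = 0.0355).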

How the data were processed

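Total RNA from kidneys and lungs was measured on Illumina bead arrays; per the labels' protocols, extraction used Trizol, quality was read on a Bioanalyzer, and biotin cRNA was made with the Ambion MessageAmp kit. The submitters' processing notes name GenomeStudio 5.0. For each of 45281 probes the deposited file holds the raw intensity and a detection p-value from the authors. The authors also deposited processed intensities, which on each array rose linearly with the raw values, within rounding. These are therefore linear, background-subtracted and scaled per array, and served as an alternative.

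Raw intensities were background-corrected and quantile normalised with neqc (limma 3.58.1, R 4.3.3, offset 16, with control intensities derived from detection p), and levels are log2. Probes with 1 annotated symbol and a detection p under 0.05 on at least 2 arrays were kept, and of several probes the one with the highest mean stood for the gene. A linear model with 4 group means was fitted to the 11 arrays with lmFit and eBayes (7 residual and 3.22 prior degrees of freedom), and p-values were adjusted by the Benjamini-Hochberg method over 12865 genes within a contrast. Errors of changes are SE of that fit. The number of arrays, at 2 obstructed kidneys, limits the precision. For "at least N-fold", a group that never detected the probe was given, on each array, the weakest signal detected there or its own reading if that was higher. P450 symbols changed by the reference annotation numbered 0. Aligned windows were compared with Biopython 1.88 under Python 3.11.15. Figures were drawn with matplotlib 3.10.9. The fit was tested on simulated data.

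The arrays of a group came from separate mice, per the labels. By their titles, the healthy kidneys and lungs share 3 mice, but the descriptions number every mouse separately; deviations of same-mouse organs correlated at 0.01, -0.07 and -0.11. The pairing by mouse comes from the titles and the design text. The sources used here give neither slide nor scan date.

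Members and lists were chosen with earlier results of these data known. Genes were named by a rule: the 12 largest called changes without overlap in each fibrosis contrast, the 6 highest means per group, the 6 largest changes each way in the other contrasts, 17 genes of note whatever their values, and others where their subfamily is described. Marker lists covered club cell, alveolar type 2, liver, proximal tubule, adrenal cortex, adipocyte, endothelial, macrophage and fibroblast. Alternatives were other background, scaling, filter, probe, variance, weight and block settings, the organs fitted apart, and each array left out. Leaving out healthy lung 3 and fibrotic lung 3 together was added after seeing the data.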

Additional observations from a re-analysis of the deposited data

Results flagged for a closer look

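For 18 P450 genes the change in kidney differed from the change in lung by the test of that difference (limma adjusted p under 0.05). The values below are the kidney change minus the lung change in log2 units. Negative differences were those of Cyp7b1 (-5.40), Cyp2d12 (-5.31), Cyp2a4 (-4.78), Cyp2j13 (-4.73), Cyp4b1 (-3.41), Cyp4b1-ps2 (-2.72), Cyp2j11 (-2.18), Cyp20a1 (-0.85) and Cyp4f39 (-0.72). Those higher in kidney were Cyp4a14 (4.18), Cyp2f2 (3.12), Cyp2s1 (2.49), Cyp4v3 (2.37), Cyp4f15 (1.93), Cyp4f16 (1.90), Cyp3a13 (1.73), Cyp27b1 (1.11) and Cyp4f13 (1.06). The difference for Cyp20a1 and for Cyp4f39 was lost without 8 and 9 of 11 single arrays in turn, and that for Cyp3a13 without fibrotic kidney 2 (1.41, adjusted p = 0.0848). That for Cyp4f13 was 0.14 (adjusted p = 0.663) with the authors' processed intensities. The remaining Cyp4f16 probe gave -1.13 (adjusted p = 0.0282), opposite to the probe used. Cyp2d12, Cyp2a4, Cyp2j13, Cyp2j11, Cyp4a14 and Cyp27b1 were not above background on any healthy lung, nor Cyp4f39 on any kidney. A fall in that organ could hardly be seen for these genes. The Y-linked Eif2s3y and Kdm5d moved fully with the kidney groups and on 1 of 3 bleomycin lungs. Sex and the organ difference therefore cannot be told apart here.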

How the results depend on the processing

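Over the alternatives run, no called P450 change reversed its direction. Of the called genes, 13 of 20 in kidney, 12 of 16 in lung, 14 of 18 in the organ difference of changes and 21 of 25 between healthy organs kept their call in every alternative. In kidney the count of lower genes was 13 and ranged from 8 to 17 with 1 array left out, and that of higher genes was 7 and ranged from 6 to 8. The 8 came without fibrotic kidney 2, when Cyp2b10, Cyp2e1, Cyp2j9, Cyp4a12a, Cyp4a31 and Cyp4v3 lost their call. In lung, 3 higher genes became 5 with a common median in place of quantile normalisation, 5 with the authors' processed intensities and 5 without healthy lung 3. With 1 array left out, the lung counts ranged from 2 to 5 higher and 13 to 15 lower, the differences of change from 9 to 11 higher and 7 to 11 lower, and the healthy organ counts from 13 to 20 higher and 9 to 11 lower. The authors' processed intensities gave 15 genes with a lower kidney than lung change in place of 9. With those values 14.3% of all called genes, and 31.8% of called P450 genes, were higher for that difference.

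Scaling moved the median of all genes. It was 0.10 in kidney and -0.03 in lung, 0.27 and 0.20 with a common median, and -0.24 and 0.48 with the authors' processed intensities. It was 0.13 for the difference of changes and -0.09 between healthy organs, 0.08 and -0.21 with a common median, and -0.77 and 0.40 with the authors' values. The higher and lower P450 counts were then 9 and 10 (common median) and 5 and 17 (authors') in kidney, 5 and 12 and 5 and 11 in lung, 10 and 8 and 7 and 15 for the difference of changes, and 15 and 12 and 21 and 8 between healthy organs. Of all genes called with the authors' values, 32.1% were higher in kidney, 88.0% in lung and 67.6% between healthy organs. Among called P450 genes these shares were 22.7%, 31.25% and 72.4%. With a common median they were 77.1%, 75.9% and 37.1% of all called genes. Among called P450 genes they were then 47.4%, 29.4% and 55.6%. Every gene called in the settings reported kept its sign under both scalings, also relative to the shifted median. With the mouse of the titles as a fixed replicate block over the 6 healthy arrays, Cyp2d9 (5.29, adjusted p = 0.0598) and Cyp2e1 (2.57, adjusted p = 0.062) lost their call between healthy organs. Cyp2e1 also lost it without healthy lung 1 (1.45, 0.0733) or any healthy kidney, and Cyp2d9 without healthy lung 1 (3.95) or 2 (4.08); without healthy lung 3 these were 3.54 and 7.85. Dim probes near background limit Cyp27b1, Cyp4f18 and Cyp39a1, and in 1 organ other genes too. Cyp4f39 was above background on 0 of 3 healthy and 0 of 2 obstructed kidneys. Cyp4f15 and Cyp26b1 were each above it on 1 of 3 healthy and 0 of 2 obstructed kidneys. Cyp4a14 and Cyp2j11 were above it on 0 of 3 healthy lungs. A fall from such levels could hardly be seen.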
